A study of Mus musculus with 11 samples.

Results

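Axon guidance ligands and receptors were examined as a group of 44 genes, picked by gene symbol out of the 25827 genes counted in nuclei of the mouse central nervous system. The list holds 6 netrin receptors and 2 netrins, 5 Slits and Robos, 10 semaphorins, 9 neuropilins and plexins, 7 Eph receptors and 3 ephrins, with the kinase Pak5 and the membrane protein Lrig2. Membership rests on the symbol, with no threshold on a measured value.

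Nuclei came from cerebellum, brainstem and cervical spinal cord of adult male mice, pooled within a library, and were sequenced in 11 libraries over 3 sequencing runs. Of these, 4 libraries were from Il12rb2fl/fl mice at day 10 after immunization for experimental autoimmune encephalomyelitis (fl EAE) and 4 from NestinCre/+Il12rb2fl/fl mice at the same day (NestinCre EAE), 3 of each from run 1 and 1 of each from run 2. Non-immunized mice gave 2 Il12rb2fl/fl libraries (fl naive, 1 each from run 2 and run 3) and 1 NestinCre/+Il12rb2fl/fl library (NestinCre naive, run 3). EAE is a T cell-driven model of multiple sclerosis, induced here with a myelin peptide, complete Freund's adjuvant and pertussis toxin, and day 10 is its clinical onset. All 11 libraries carry the floxed allele of Il12rb2, which encodes a chain of the IL-12 receptor. Nestin-Cre is active in neural precursors, so neurons, oligodendrocytes and astrocytes alike descend from cells with Cre. The labels do not tie a library to a named animal, so the p-values measure the spread between libraries.

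Axon guidance cues steer growing neurites by binding receptors on the growth cone. Netrins bind Dcc, neogenin (Neo1) and the Unc5 receptors. Slits bind Robos, semaphorins bind plexins, in many cases with a neuropilin as co-receptor, and ephrins bind Eph receptors and can signal in both directions. In the adult nervous system the same families act at synapses, on vessels and on immune cells, and in the oligodendrocyte lineage they are known for directing precursor migration and the outgrowth of processes. Pak5 is a p21-activated kinase enriched in brain, and Lrig2 limits the shedding of neogenin from the cell surface.

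After doublets were left out, 159509 nuclei remained, with 11606 to 18485 in a library and a library median of 1831 to 3244 UMIs (unique molecules) per nucleus. Classes were named from clusters by fixed markers. The results below rest on 20575 mature oligodendrocytes (1062 to 3438 in a library) and 122611 neurons (8934 to 13308), of which 101744 were granule cells, 7482 molecular layer interneurons, 6079 excitatory neurons and 6002 inhibitory neurons. Excitatory and inhibitory neurons were named by transmitter genes among neurons that met no cerebellar type. Their region is not known, since the tissues were pooled. Pairs of libraries shared 47 to 140 barcodes, at most 0.692%. Levels are given as CPM, the UMIs of a gene per 1000000 UMIs of the class in a library. In these pooled sums a smaller number of expressing cells and less RNA per cell cannot be told apart, nor can levels of different genes be compared, since gene length was not corrected for. The targeted gene, Il12rb2, was counted over its whole length and ranged from 9.07 to 18.9 CPM in neurons of all 11 libraries, with a difference of -0.07 log2 units between NestinCre EAE and fl EAE (SE 0.17, edgeR adjusted p = 0.972), so these counts do not separate the genotypes.

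All 44 members reached 20 or more UMIs in each of the 6 classes tested, and all were therefore tested in each. They are long genes. The median member spans 175.4 kb of the genome, from 6.4 kb for Efnb3 to 1555.5 kb for Robo2, and 35 of 44 span at least 100 kb, a length that 12.9% to 15.4% of all genes tested reach. Reads from introns were counted, so that long genes are well covered in nuclear RNA.

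The members were spread over neuronal and other cell classes. Both netrins and all netrin receptors but Neo1 were highest in a neuronal class, as were all Slits and Robos but Slit2, while semaphorins, plexins, Eph receptors and ephrins included members highest in glia. Among 14 classes with at least 10 nuclei in 10 or more libraries, mature oligodendrocytes had the highest median of 7 members, excitatory neurons of 6, and no other class of more than 4. In what follows, a gene is called highest in a class among these 14 alone, which leave out rarer classes such as newly formed oligodendrocytes and infiltrating phagocytes. The 7 were Pak5, Ephb1, Neo1, Sema6a, Plxnb3, Efnb3 and Lrig2. The classes were clustered on these genes among others, and the levels are a description without a test.

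**Figure D1:**
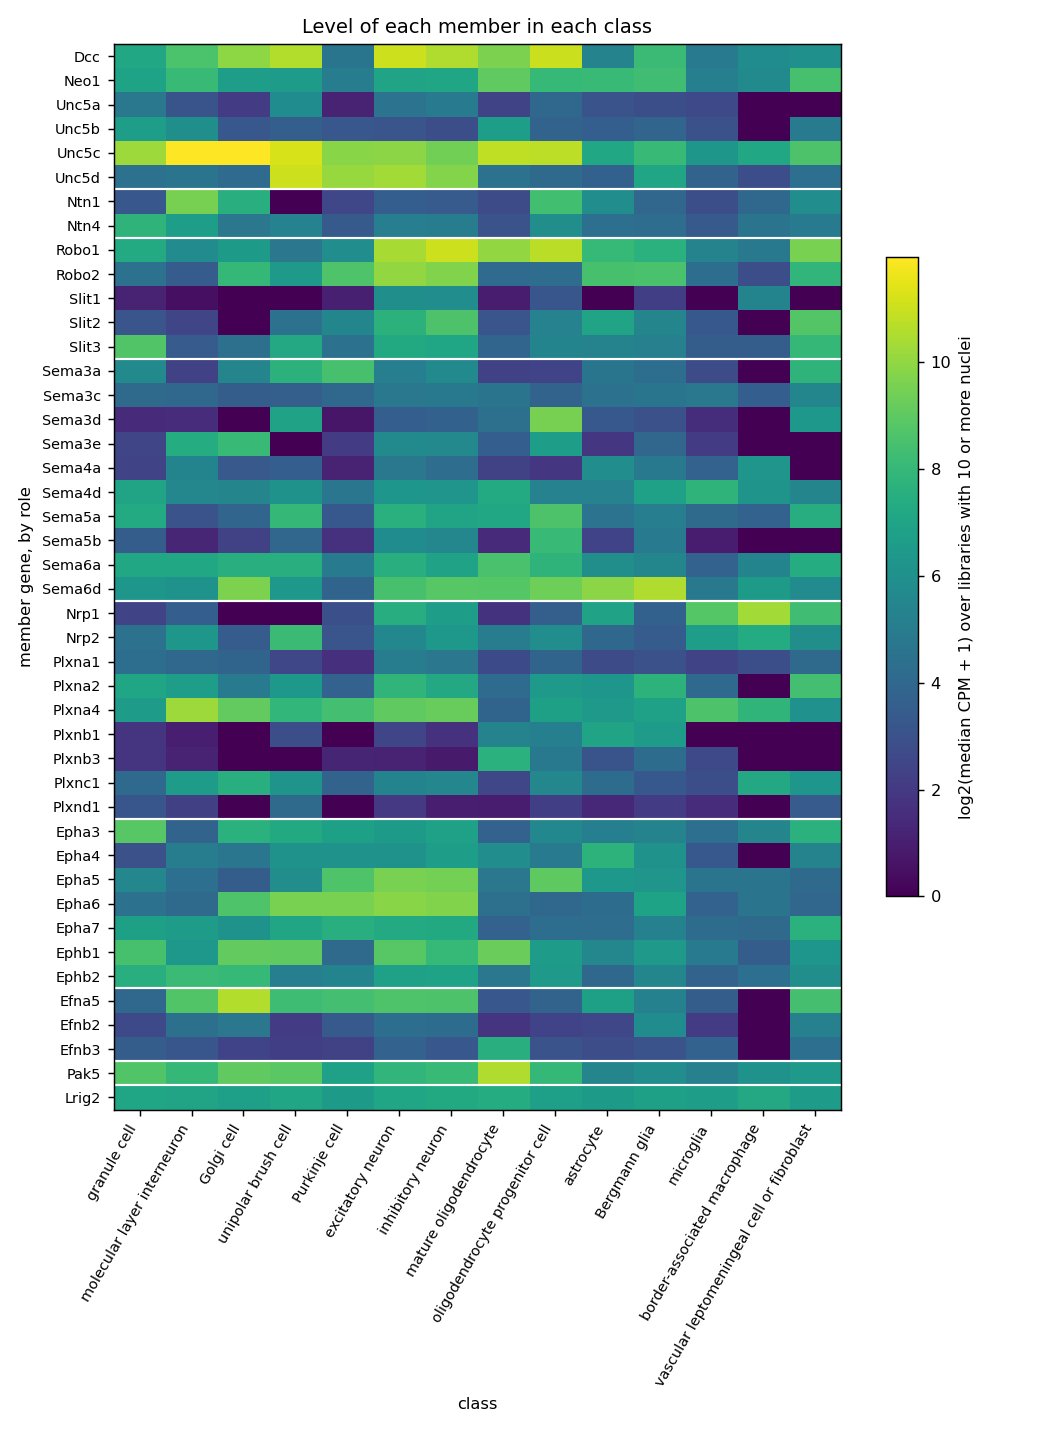
Median level of the 44 members (rows, grouped by role with white lines) in 14 cell classes (columns), as log2(median CPM + 1) over the libraries with 10 or more nuclei of the class; brighter is higher. Unc5c in molecular layer interneurons and Golgi cells, Dcc in excitatory neurons and Pak5 in mature oligodendrocytes stand out as bright cells, while Plxnb3 and Efnb3 are brighter in mature oligodendrocytes than in the neuronal classes.

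Among the netrin receptors, Dcc had a median of 2129 CPM in excitatory neurons (1637 to 2402 over libraries), close to the 2084 CPM of oligodendrocyte progenitor cells, and 771 CPM in mature oligodendrocytes. In granule cells its median was 144 CPM. Unc5c, a repulsive netrin receptor, was highest in molecular layer interneurons at 3989 CPM, with 1828 CPM in mature oligodendrocytes and 1183 CPM in granule cells. Unc5d was highest in unipolar brush cells at 2107 CPM and was at 21.9 CPM in granule cells. Neo1 was highest in mature oligodendrocytes at 532 CPM. The ligand Ntn1 was highest in molecular layer interneurons at 719 CPM and was at 8.53 CPM in granule cells, whereas Ntn4 was highest in granule cells at 217 CPM.

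The Slit receptors differed in place. Robo1 was at 2110.3 CPM in inhibitory neurons and 1037 CPM in mature oligodendrocytes, and Robo2 was at 1039.6 CPM in excitatory neurons and 17.4 CPM in mature oligodendrocytes. Slit3 was highest in granule cells (421 CPM), Slit2 in vascular leptomeningeal cells or fibroblasts (439 CPM) and Slit1 in excitatory neurons (61.9 CPM). Robo2 and Slit1 shared the class of their highest median, and the other 3 genes each had a class of their own.

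Of the semaphorins, Sema5a marked the early oligodendrocyte lineage. Its median was 391 CPM in oligodendrocyte progenitor cells and 1778 CPM in newly formed oligodendrocytes (1570 to 2169 CPM, in the 6 libraries with at least 10 such nuclei), against medians of 137 and 143 CPM in mature oligodendrocytes and in neurons. Among the 14 classes, Sema3d and Sema5b were highest in oligodendrocyte progenitor cells at 721 and 272 CPM, while Sema5b reached 310.4 CPM in newly formed oligodendrocytes. Sema6d was highest in Bergmann glia at 1475 CPM, and Sema3a, a classical repellent, in Purkinje cells at 354 CPM. Sema4d was highest among the 14 in microglia at 219 CPM, with 159 CPM in mature oligodendrocytes, which do not differ beyond their spread over libraries (121 to 302 CPM in microglia), and it was at 561 CPM in newly formed oligodendrocytes.

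Among semaphorin receptors, Plxnb3 was at 196 CPM in mature oligodendrocytes, at 2.62 CPM in granule cells and at 0.797 CPM in inhibitory neurons. Plxna4 was highest in molecular layer interneurons at 1169 CPM and was at 13.6 CPM in mature oligodendrocytes. Nrp1 was highest in border-associated macrophages at 1268 CPM. Among Eph receptors, Epha5 and Epha6 were highest in excitatory neurons (753 and 916 CPM), Epha3 in granule cells (465 CPM), Ephb2 in molecular layer interneurons (283 CPM) and Ephb1 in mature oligodendrocytes (605 CPM). The ephrins lay in 3 different classes, with Efna5 highest in Golgi cells (1551 CPM), Efnb2 in Bergmann glia (56.2 CPM) and Efnb3 in mature oligodendrocytes (185 CPM). Pak5 was at 1462 CPM in mature oligodendrocytes and 414 CPM in granule cells. Of the members not yet placed, Unc5b was highest in granule cells (101 CPM), Sema3e and Plxnc1 in Golgi cells (275 and 179.8 CPM), Unc5a, Nrp2 and Plxnd1 in unipolar brush cells (54.6, 286 and 16.6 CPM) and Plxna1 in excitatory neurons (31.6 CPM). Plxna2, Epha7 and Sema3c were highest in vascular leptomeningeal cells or fibroblasts (332, 199 and 44.1 CPM), Plxnb1 and Epha4 in astrocytes (125 and 215 CPM), Sema4a in border-associated macrophages (74.4 CPM, against 149 CPM in infiltrating phagocytes outside the 14 classes) and Sema6a and Lrig2 in mature oligodendrocytes (363 and 167 CPM). In the 6 classes tested, the median of Lrig2 lay between 124 CPM (molecular layer interneurons) and 167 CPM.

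Neurons make up most of the nuclei, and markers of neurons were counted in mature oligodendrocytes too, so the members there are set beside them. Across 8 neuron markers (Gabra6, Cadps2, Fat2, Snap25, Syt1, Rbfox3, Grin2c and Slc17a7), the level in mature oligodendrocytes was 6.61% to 35.3% of that in neurons, and 8 oligodendrocyte markers such as Mog and Mag were 15.3 to 84.2 times higher in mature oligodendrocytes than in neurons. Of the members, 19 lay above the highest neuron marker and 25 at or below it. The median ratio of mature oligodendrocytes to neurons was above 1 for 17 members, in all 11 libraries for 14 of them. It was 104 for Plxnb3, 20.1 for Efnb3, 15.3 for Plxnb1, 4.25 for Pak5, 3.77 for Neo1 and 1.00 for Sema5a. Values of the 25 members at or below the markers, among them Epha3 (4.62% of the neuronal level) and Ephb2 (15.7%), may hold RNA of neurons in mature oligodendrocytes to an extent that was not tested.

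The genotypes were compared at EAE onset within each class, with sequencing run in the model. In mature oligodendrocytes, Sema5a was lower in NestinCre EAE and was the only member to pass the threshold (edgeR's quasi-likelihood test with Benjamini-Hochberg adjustment over all genes, adjusted p under 0.05). Sema5a is a membrane semaphorin known to inhibit axon growth when made by the oligodendrocyte lineage. It lies at chr15:32244919-32696487 on the plus strand (GRCm39). Its level was 159, 143, 172 and 149 CPM in the 4 fl EAE libraries and 116, 101, 123 and 111 CPM in the 4 NestinCre EAE libraries. All 4 NestinCre EAE values lay below all 4 fl EAE values. The log2 difference was -0.49 (SE 0.11, adjusted p = 0.029). A normal approximation gave a 95% interval of -0.69 to -0.28, which is narrower than the test itself would give. The 2 fl naive libraries had 182 and 137 CPM and the NestinCre naive library 120.4 CPM. Since the study itself singled out Sema5a, Pak5, Dcc, Ephb1 and Lrig2 in oligodendrocytes of these libraries, the direction of these genes is not independent evidence. The study called them with a Wilcoxon rank-sum test over single nuclei in its MOL1 and MOL2 clusters. That test is unlike the one here, whose units are libraries and whose class is undivided.

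The Sema5a call was near the threshold. It was lost without any 1 of 5 libraries, with adjusted p = 0.106 without fl EAE replicate 1, 0.104 without fl EAE replicate 3, 0.0685 without fl EAE replicate 4, 0.112 without NestinCre EAE replicate 2 and 0.0684 without NestinCre EAE replicate 4 (leaving out either replicate 4 leaves run 1 alone to carry the comparison), while the log2 difference stayed between -0.54 and -0.43 over the 8 leave-one-out fits. It was -0.46 within run 1 alone (adjusted p = 0.0662), -0.41 with doublets kept (adjusted p = 0.0614) and -0.32 in nuclei under 6000 UMIs (adjusted p = 0.252).

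In that comparison 1.97% of 15982 genes passed the threshold, against 1 of 44 members. The median member differed by 0.06 log2 units and the median of all genes tested by 0.003. A further 8 members had an unadjusted p under 0.05 without passing it, which makes 2 higher and 7 lower (9 of 44), against 11.0% of all genes. Non-overlapping groups of 4 were seen for 6.44% of all genes and for 3 members, Sema5a, Pak5 and Lrig2, all lower.

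Pak5 had 1722, 1514, 1462 and 1822 CPM in fl EAE and 1141, 1097, 1367 and 1376 CPM in NestinCre EAE. These values did not overlap, and the log2 difference of -0.41 (SE 0.11) had an adjusted p of 0.096 by edgeR and 0.0279 by DESeq2. Pak5 was at 1691 and 1266 CPM in fl naive and 1738 CPM in NestinCre naive.

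Dcc had 868, 886, 898 and 760.4 CPM in fl EAE and 705, 499.8, 689 and 771 CPM in NestinCre EAE, so that the highest NestinCre EAE library lay above the lowest fl EAE library. Its log2 difference was -0.38 (SE 0.13, adjusted p = 0.209). Lrig2 had 168, 189, 169 and 167 CPM in fl EAE and 150.0, 159, 144 and 163 CPM in NestinCre EAE. The groups did not overlap, but the difference was small at -0.19 (SE 0.09, adjusted p = 0.471). Ephb1 had 614, 659, 668 and 585 CPM against 597, 546, 665 and 459 CPM. It overlapped between the groups and its difference was -0.18 (SE 0.11, adjusted p = 0.606).

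Ephb2, an Eph receptor for B-type ephrins, had 28.6, 26.1, 29.9 and 14.6 CPM in fl EAE and 23.9, 13.3, 13.7 and 16.1 CPM in NestinCre EAE, with a log2 difference of -0.54 (SE 0.20, adjusted p = 0.296). Epha3 was the member with the second smallest p and the largest fitted increase, with 11.1, 10.9, 15.4 and 6.19 CPM in fl EAE and 31.3, 22.7, 16.1 and 12.4 CPM in NestinCre EAE (log2 difference 0.88, SE 0.21, adjusted p = 0.0515 by edgeR and 0.024 by DESeq2). The groups overlapped, and with RLE in place of TMM size factors the adjusted p was 0.0459. Epha3 is most abundant in granule cells. In mature oligodendrocytes without any UMI of the 8 neuron markers its difference was -0.42 (adjusted p = 0.915). That subset holds fewer counts, with 12819 genes tested against 15982 in the class, and its fit does not resolve the direction of Epha3. The summed neuron markers in mature oligodendrocytes were 479 to 916 CPM in fl EAE and 771 to 1148 CPM in NestinCre EAE (mean difference 203 CPM, exact permutation test over 70 assignments, p = 0.2, smallest possible p = 0.0286), with all 8 detected in each group. The 8 microglia and phagocyte markers summed to 69.8 to 110.4 CPM and 95.4 to 233 CPM (exact permutation p = 0.0857). These permutations did not keep libraries within their run. Within run 1 the microglia and phagocyte sums were 73.4 to 110.4 and 148 to 233 CPM, and in run 2 69.8 and 95.4 CPM. The part of either marker set in these differences was not tested. In the nuclei without a neuron marker UMI, Sema5a differed by -0.51 (adjusted p = 0.218).

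**Figure D2:**
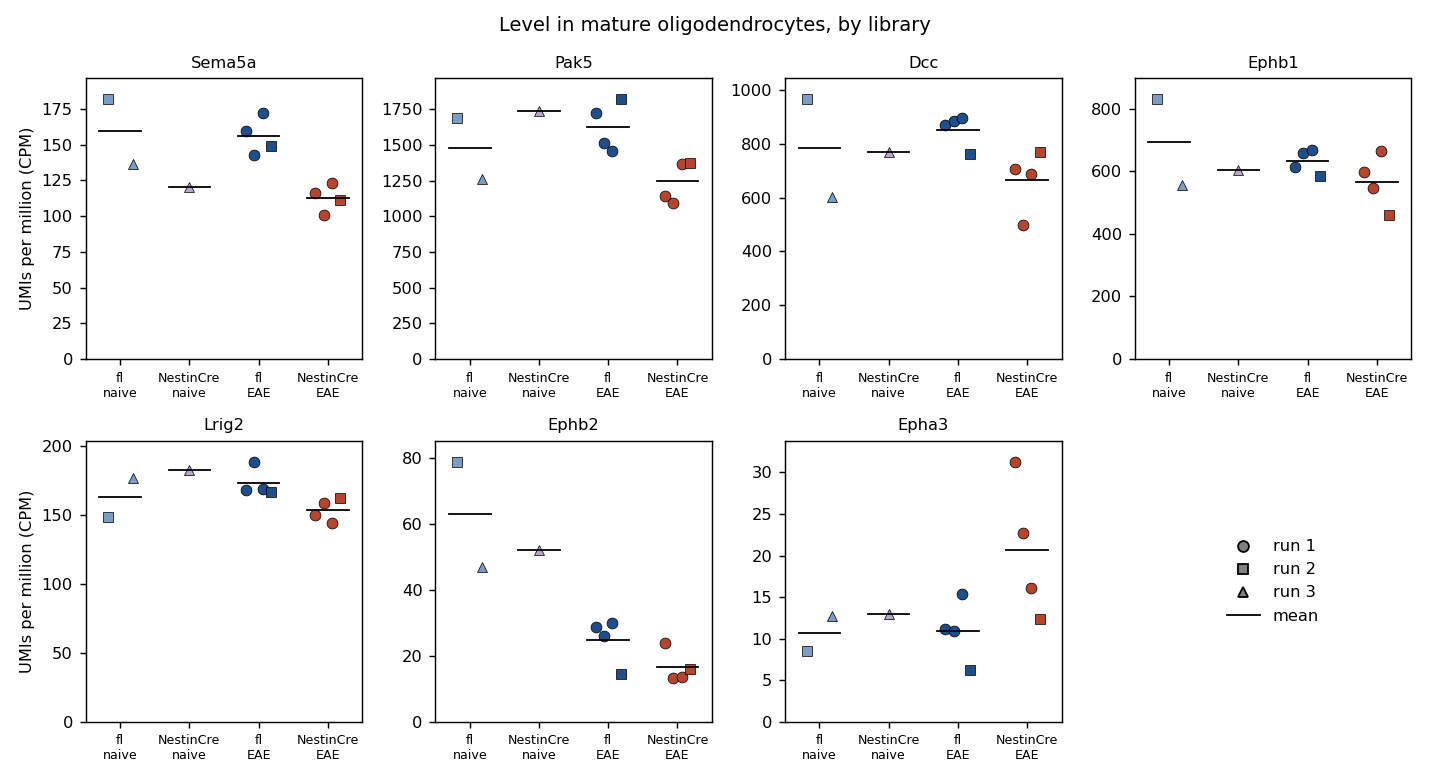
Level of 7 members in mature oligodendrocytes (CPM, linear axes from 0) in each of the 11 libraries, by group; point shape gives the sequencing run and the line the group mean. Sema5a sits at 101 to 123 CPM in NestinCre EAE and at 143 to 172 CPM in fl EAE, and Ephb2 at 47.1 to 78.9 CPM in the 3 naive libraries against 13.3 to 29.9 CPM in EAE.

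Mature oligodendrocytes fell into 4 clusters, and the guidance genes were not even across them. One was led by Anln, Mob3b and Enpp6, 2 had Il33 among their leading genes and are pooled here, and one was led by interferon-response genes (C4b, Irgm2 and Iigp1). Enpp6 is also among the fixed markers of newly formed oligodendrocytes, as is Bcas1, a leading gene of an Il33-led cluster. The part of that earlier stage in the clusters was not tested. The division inside the class is not fixed, since clustering with another random seed gave 5 clusters, although 98.0% of nuclei kept their class. The Anln-led cluster had a median of 271 CPM of Sema5a, 1581 CPM of Robo1, 681 CPM of Sema6d and 871 CPM of Ephb1. In the Il33-led clusters, which held most of the class, the same genes were at 36.4, 688, 288 and 433 CPM, while Ephb2 was at 37.4 CPM against 8.50 CPM, Epha4 at 80.6 CPM against 29.1 CPM and Sema6a at 452 CPM against 225 CPM. Medians of some other members lay closer together, with Pak5 at 1372 CPM in the Anln-led and 1550.3 CPM in the Il33-led clusters, Neo1 at 505 and 545 CPM and Plxnb3 at 201 and 192 CPM. Others lay further apart at low levels, such as Sema3d at 6.31 and 24.9 CPM and Slit3 at 20.8 and 8.43 CPM. The clusters were made with these genes, so the comparison is a description.

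The makeup of the class by these clusters differed between the EAE groups. The Anln-led cluster held 30.8% to 35.0% of mature oligodendrocytes in fl EAE and 24.0% to 29.2% in NestinCre EAE. The Il33-led clusters held 64.5% to 67.9% in fl EAE and 53.0% to 61.9% in NestinCre EAE, and the interferon-led cluster 4.69% or less in each fl EAE library, 8.90% to 22.4% in NestinCre EAE and 0.058% to 0.147% in the 3 naive libraries. A sum over the class follows such shares, so the genotype difference was also computed within clusters, a choice made after seeing the data. The nuclei left in the other clusters depend on how many fell in the interferon-led cluster. These fits therefore do not remove the part of makeup, which was not tested. Within the Anln-led cluster Sema5a was at 328, 295, 382 and 292 CPM in fl EAE and 227, 197, 251 and 195 CPM in NestinCre EAE. The groups did not overlap there either, though the share of all genes that do so in this cluster is not given here. The log2 difference was -0.59 (adjusted p = 0.00903), where 136 of 14019 genes passed the threshold. Without the interferon-led cluster, it was -0.58 over the rest of the class (adjusted p = 0.00595), where 256 of 15787 genes passed. In the Il33-led clusters, where the gene was at 20.9 to 44.6 CPM in the EAE libraries, the difference was -0.34 with an adjusted p of 0.603.

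Ephb2 showed the reverse distribution. In the Il33-led clusters it was at 42.5, 37.4, 43.3 and 23.1 CPM in fl EAE and 25.7, 18.9, 19.3 and 19.2 CPM in NestinCre EAE. The run 2 library of fl EAE, at 23.1 CPM, lay below the highest NestinCre EAE library. The difference in these clusters alone was -0.80 (adjusted p = 0.0152), where 217 of 14857 genes passed the threshold. In the Anln-led cluster it was at 3.24 to 12.4 CPM in all 8 EAE libraries, with a difference of 0.07 (adjusted p = 0.993). Epha3, for comparison, was at a median of 43.0 CPM in the interferon-led cluster, over the libraries with at least 10 of its nuclei. These were fl EAE replicate 3 and all NestinCre EAE libraries. Over all 11 libraries it was at 10.3 CPM in the Anln-led and 14.2 CPM in the Il33-led clusters, so these medians differ in genotype and state as well as in cluster. Neuron markers summed to a median of 1316 CPM in the interferon-led cluster, 639 CPM in the Anln-led and 867 CPM in the Il33-led clusters. Without the interferon-led cluster the Epha3 difference was 0.53 (adjusted p = 0.516).

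**Figure D3:**
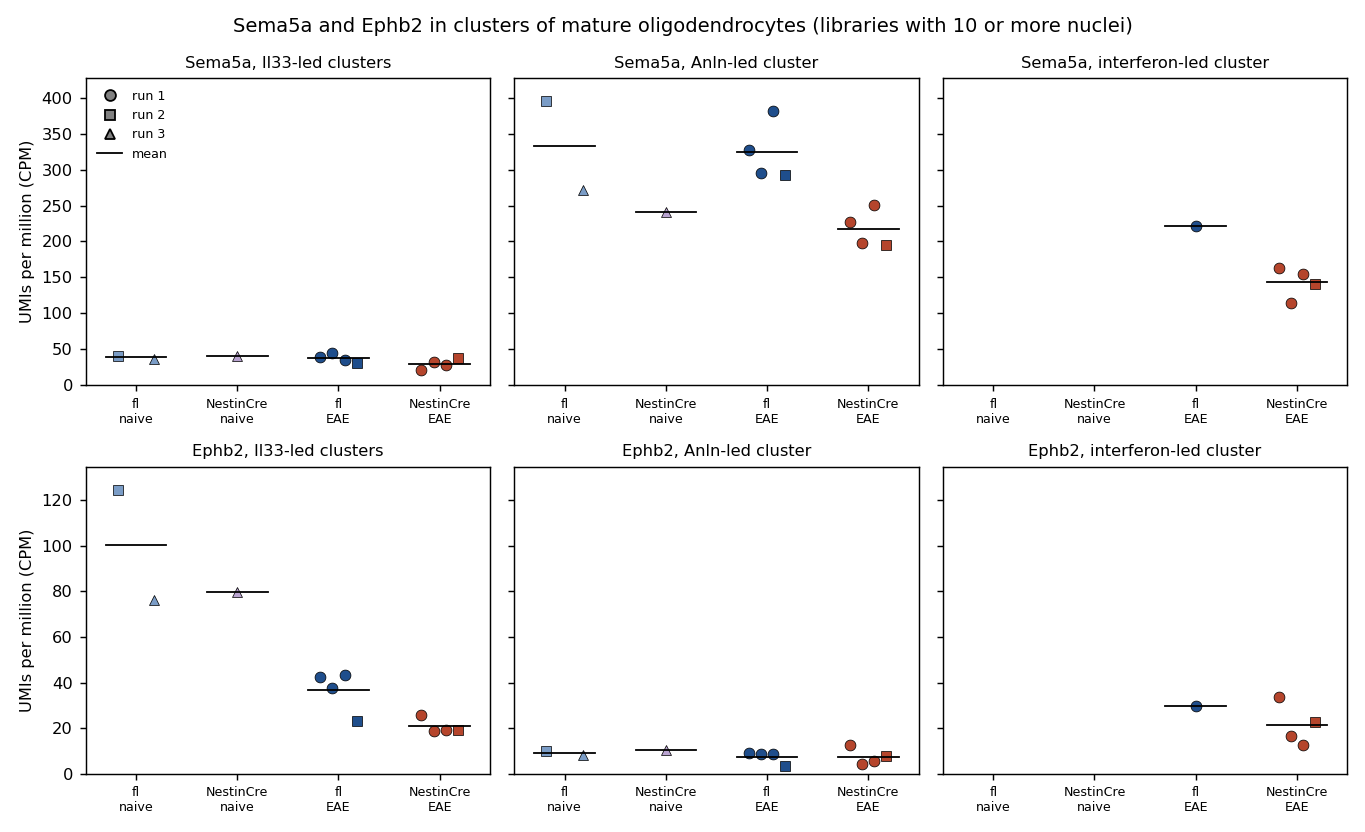
Level (CPM, linear axes from 0, shared within a row) of Sema5a (upper row) and Ephb2 (lower row) in the Il33-led clusters, the Anln-led cluster and the interferon-led cluster of mature oligodendrocytes, for each library with 10 or more nuclei of the cluster; shapes give the run and lines the group mean. Sema5a is high in the Anln-led cluster, where the NestinCre EAE libraries (195 to 251 CPM) lie below the fl EAE libraries (292 to 382 CPM), and Ephb2 is high in the Il33-led clusters of the naive libraries (76.1 to 124 CPM).

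In neurons no member passed the threshold between the genotypes at EAE onset. Over all neuronal nuclei, 1.24% of 19966 genes passed by edgeR and 0 members did, with 0 members and 1553 genes at an unadjusted p under 0.05. By DESeq2, 0 members and 402 genes passed the threshold. The members' log2 fold changes ran from -0.25 to 0.49 and their median was 0.013, next to one over all genes that rounds to 0. Non-overlapping groups were seen for 4.41% of genes and for 0 members. The SE of a member's log2 difference had a median of 0.137.

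The smallest p belonged to Ntn1, a secreted netrin, with 56.5, 64.8, 66.5 and 50.3 CPM in fl EAE and 41.1, 46.4, 56.0 and 59.7 CPM in NestinCre EAE (log2 difference -0.25, SE 0.11, adjusted p = 0.646). Unc5a, a netrin receptor, had 25.4, 23.7, 21.9 and 22.2 CPM against 22.6, 27.3, 26.5 and 29.7 CPM (0.16, SE 0.08, adjusted p = 0.671). Sema4a had 12.5, 10.6, 12.3 and 8.07 CPM against 10.2, 12.1, 14.2 and 16.5 CPM (0.27, SE 0.16, adjusted p = 0.815). All 3 genes overlapped between the groups. Plxnb3, a receptor for Sema5a, had 1.32, 1.34, 2.20 and 1.01 CPM against 1.99, 2.34, 1.75 and 2.13 CPM (0.49, SE 0.23, adjusted p = 0.670). Plxnb1, a receptor for Sema4d, had 2.20, 2.27, 3.45 and 1.49 CPM against 2.72, 3.28, 3.33 and 2.43 CPM (0.33, SE 0.19, adjusted p = 0.801). Both were far higher in mature oligodendrocytes than in neurons, and the 8 oligodendrocyte markers summed to 197 to 678 CPM in neurons of fl EAE and 339 to 564 CPM in neurons of NestinCre EAE (exact permutation p = 0.743).

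**Figure D4:**
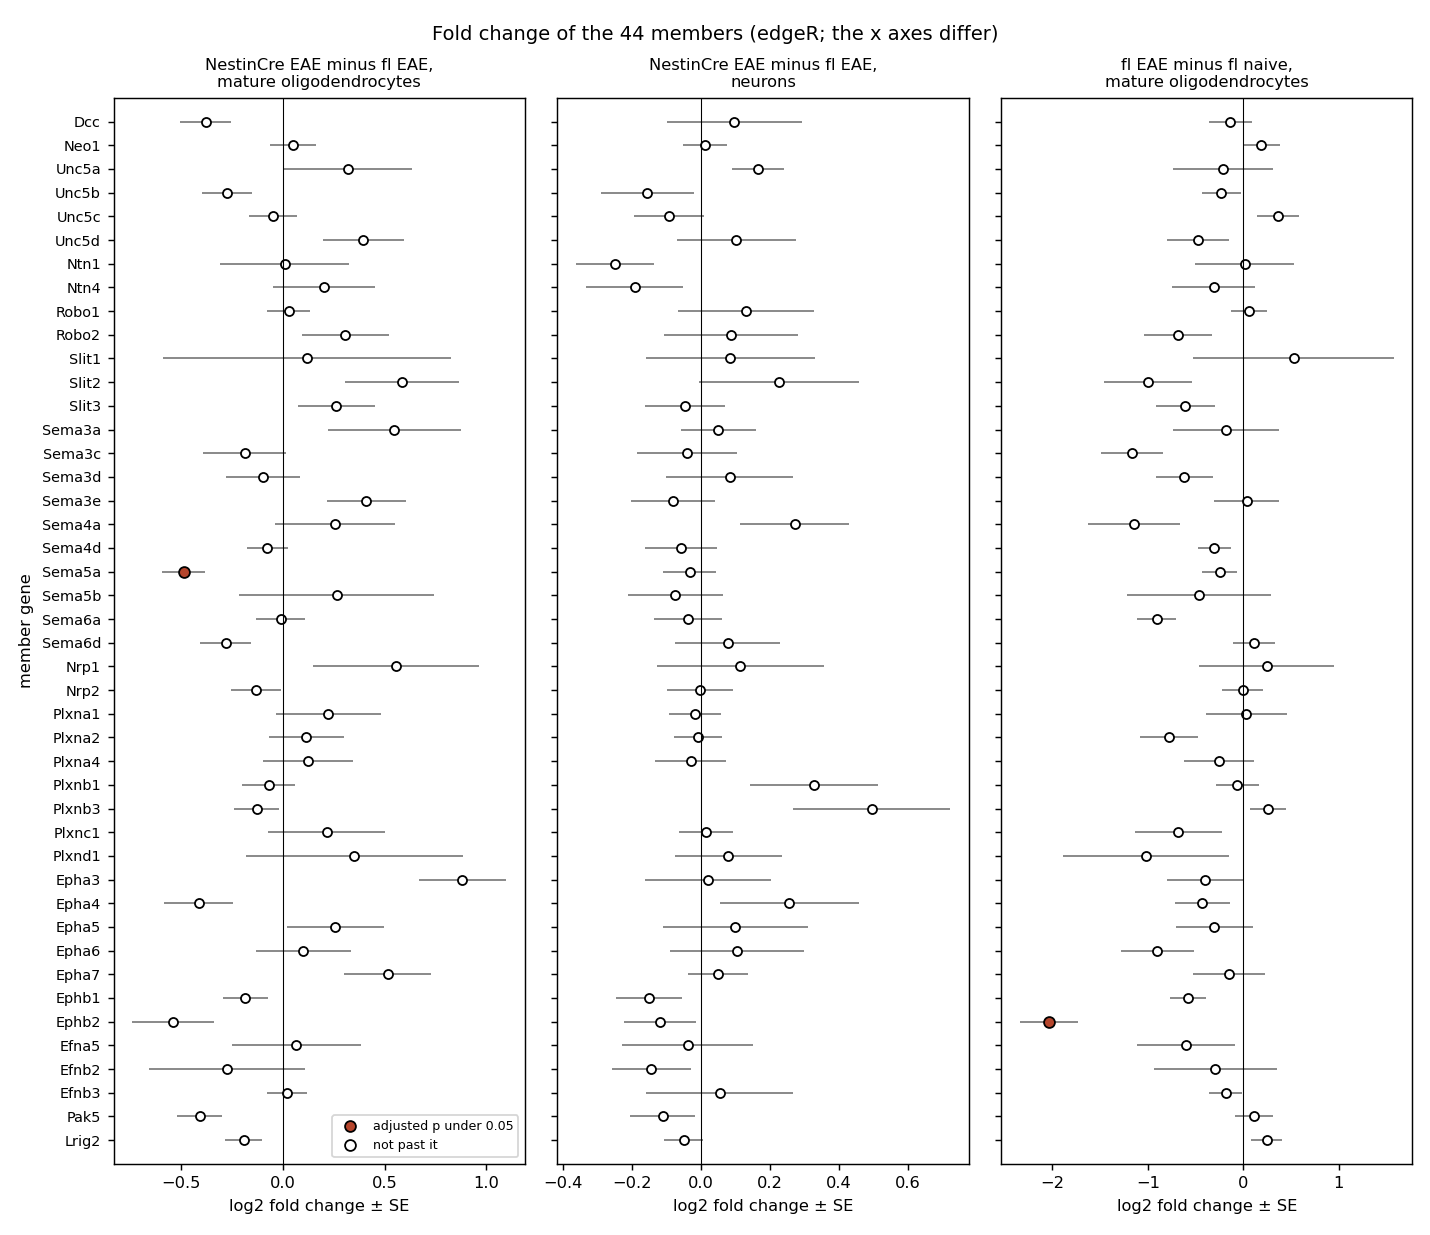
Log2 fold change with its SE (bars) for the 44 members, from edgeR, for NestinCre EAE minus fl EAE in mature oligodendrocytes (left) and in neurons (middle) and for fl EAE minus fl naive in mature oligodendrocytes (right); the x axes differ in range and filled points passed an adjusted p of 0.05. The 2 filled points are Sema5a (-0.49, left) and Ephb2 (-2.03, right).

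In granule cells, 2.03% of 18648 genes passed by edgeR and 0 members did, with 7 members at an unadjusted p under 0.05 (4 higher and 3 lower, against 10.2% of all genes) and 1 member past the threshold by DESeq2, which called 460 genes in all. That member was Sema4a, with 3.62, 3.75, 3.96 and 2.06 CPM in fl EAE and 4.92, 6.91, 5.13 and 4.44 CPM in NestinCre EAE. The groups did not overlap, at a low level, and the log2 difference was 0.68 (SE 0.16, adjusted p = 0.0589 by edgeR and 0.0176 by DESeq2). Infiltrating phagocytes had a median of 149 CPM of Sema4a, and the 8 microglia and phagocyte markers summed to 116 to 149 CPM in granule cells of fl EAE and 137 to 258 CPM in those of NestinCre EAE (exact permutation p = 0.0571, run not kept fixed). Within run 1 the sums were 129 to 149 and 186 to 258 CPM, and in run 2 116 and 137 CPM. The part of such RNA in the Sema4a values was not tested. Groups did not overlap for 5.97% of genes and for 6 members, Sema4a and Robo1 (higher) and Nrp2, Pak5, Ephb1 and Sema5b (lower).

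Among those 6, Robo1 had 139.9 to 161 CPM in fl EAE and 162 to 199 CPM in NestinCre EAE (0.24, SE 0.09, adjusted p = 0.376), and Sema5b had 10.4 to 16.1 CPM against 8.29 to 10.0 CPM (-0.48, SE 0.14, adjusted p = 0.181). In granule cells of these libraries the study named Nrp2 as reduced in NestinCre/+Il12rb2fl/fl mice, by a test over single nuclei. It named Efna5 and Epha7 as a predicted ligand-receptor pair. Such pairs were inferred from changed genes of the receiving cells, with ligands from several sender classes. Levels within the class do not test them. Nrp2, a co-receptor for class 3 semaphorins, had 21.4, 22.4, 23.7 and 22.7 CPM in fl EAE and 21.1, 18.4, 20.3 and 16.5 CPM in NestinCre EAE (-0.27, SE 0.11, adjusted p = 0.377). Efna5 had 12.3, 16.6, 11.4 and 12.0 CPM against 12.3, 18.5, 9.66 and 17.9 CPM (0.12, SE 0.19, adjusted p = 0.904). Epha7 had 115, 108, 107 and 131 CPM against 132, 119, 111 and 106 CPM (0.01, SE 0.11, adjusted p = 0.994). Efna5 and Epha7 overlapped broadly between the groups.

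Granule cells were 83.8% ± 3.8 of neurons in fl EAE and 83.1% ± 4.5 in NestinCre EAE (SD, n = 4 each, exact permutation p = 0.8). In run 2 they were 87.4% in fl EAE and 76.5% in NestinCre EAE, with excitatory neurons at 3.49% and 7.66% and inhibitory neurons at 2.41% and 8.24%. The part of this makeup in the sums over neurons was not tested.

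In excitatory neurons 0.163% of 17148 genes and 0 members passed by edgeR, with 1 member at an unadjusted p under 0.05 (5.49% of all genes). By DESeq2, 0 members and 40 genes passed. Groups did not overlap for 2.92% of genes and 0 members. The study named Efnb3, Epha4 and Efnb2 there as parts of predicted ligand-receptor pairs, which levels within the class do not test. Efnb3 had 12.3, 11.1, 15.7 and 14.8 CPM in fl EAE and 11.1, 11.5, 11.5 and 15.5 CPM in NestinCre EAE (-0.12, SE 0.15, adjusted p = 0.989). Epha4 had 75.2, 88.6, 61.4 and 56.6 CPM against 74.8, 66.6, 72.5 and 84.0 CPM (0.13, SE 0.11, adjusted p = 0.988). Efnb2 had 21.3, 19.1, 18.1 and 27.1 CPM against 17.9, 23.8, 17.2 and 18.3 CPM (-0.17, SE 0.14, adjusted p = 0.988). The groups overlapped for all 3 genes.

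In inhibitory neurons 0.108% of 17626 genes and 0 members passed by edgeR, with 4 members at an unadjusted p under 0.05 (5.70% of all genes). By DESeq2, 0 members and 18 genes passed. Non-overlapping groups were seen for 2.87% of genes and for 0 members. The smallest p was that of Epha4, with 86.7 to 104 CPM in fl EAE and 103 to 114 CPM in NestinCre EAE (0.19, SE 0.07, adjusted p = 0.753).

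In molecular layer interneurons 0.502% of 15151 genes and 0 members passed by edgeR, with 5 members at an unadjusted p under 0.05 (7.29% of all genes). By DESeq2, 0 members and 58 genes passed. Non-overlapping groups were seen for 3.94% of genes and for 1 member, Sema6d, with 77.6 to 79.4 CPM in fl EAE and 55.1 to 69.4 CPM in NestinCre EAE (-0.24, SE 0.10, adjusted p = 0.593). Dcc had 330.2, 291, 285 and 404 CPM in fl EAE and 476, 405, 385 and 379.9 CPM in NestinCre EAE. The run 2 library of fl EAE (404 CPM) lay among the NestinCre EAE values, and the log2 difference was 0.35 (SE 0.11, adjusted p = 0.327). Within run 1 alone it was 0.53 (adjusted p = 0.0187), and leaving out either run 2 library amounts to the same comparison, since the run term then takes up the other. In mature oligodendrocytes of the same libraries the Dcc difference was -0.38. These differences come from separate fits, and the difference between the classes was not tested.

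Immunization was compared in the Il12rb2fl/fl genotype. Run 2 was the only run with both states, so that with run in the model this comparison rests on the fl naive library of that run, set against its EAE libraries (1 of each genotype). All 11 libraries entered the fit, but the 3 naive libraries are fitted exactly. The spread therefore comes from the 8 EAE libraries, and the p-values hold no spread between naive libraries. The study describes a naive library sequenced with 1 EAE library of each genotype as an internal control for reproducibility and batch effects. It left steady-state libraries out of its analysis. In mature oligodendrocytes 0.695% of 15982 genes passed the threshold, and of the members Ephb2 did. It lies at chr4:136374850-136563351 on the minus strand (GRCm39). Ephb2 had 28.6, 26.1, 29.9 and 14.6 CPM in fl EAE, the last being the run 2 library, and 78.9 (run 2) and 47.1 CPM (run 3) in fl naive. The lowest naive value was above the highest EAE value. The NestinCre naive library had 52.0 CPM and the run 2 NestinCre EAE library 16.1 CPM, so that all 3 naive libraries lay above all 8 EAE libraries. The share of all genes that separate naive from EAE libraries in this way is not given here. The log2 difference was -2.03 (SE 0.31, 95% interval -2.63 to -1.43 by the same, too narrow normal approximation, adjusted p = 0.0147). It was -1.64 without fl EAE replicate 4 (adjusted p = 0.068), a fit in which the NestinCre EAE library alone stands for EAE in run 2. It was -1.33 without run in the model (adjusted p = 0.136) and -1.14 with doublets kept (adjusted p = 0.0185).

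In the Il33-led clusters Ephb2 was at 124, 76.1 and 79.5 CPM in the 3 naive libraries against 18.9 to 43.3 CPM in the 8 EAE libraries. The difference in those clusters alone was -2.11 (adjusted p = 6.85e-05), where 200 of 14857 genes passed the threshold. The naive libraries were above the EAE libraries with no overlap, again without a share over all genes to set beside it. In the Anln-led cluster Ephb2 was at 8.15 to 10.3 CPM in the naive libraries and 3.24 to 12.4 CPM in EAE (-0.82, adjusted p = 0.712). Relative to neurons of the same library, Ephb2 in the Il33-led clusters stood at 37.2% to 65.3% in the naive libraries and 10.8% to 27.2% in EAE, the latter within the range of the 8 neuron markers over the class. The Il33-led clusters held 66.1% to 67.1% of mature oligodendrocytes in the naive libraries and 64.5% to 67.9% in fl EAE.

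Sema6a, a transmembrane semaphorin known from oligodendrocyte differentiation, had 339, 339, 369 and 344 CPM in fl EAE and 593 and 422 CPM in fl naive. The fl groups did not overlap, a separation for which the share of all genes is not given here. The NestinCre naive library, at 363 CPM, lay within the fl EAE range. The difference between fl EAE and fl naive was -0.91 (SE 0.20, adjusted p = 0.0618 by edgeR and 0.011 by DESeq2). Without fl EAE replicate 4 it was -1.27 (adjusted p = 0.0302). That fit has no fl EAE library in run 2 and leans on the run 2 NestinCre EAE library, the lowest of the 11 at 283 CPM. In the Anln-led cluster alone the difference was -1.10 (adjusted p = 0.00303), where 121 of 14019 genes passed the threshold. That value rests on the run 2 fl naive library, at 407 CPM in the cluster, since the run 3 fl naive library had 241 CPM and the NestinCre naive library 227 CPM, next to 199 to 236 CPM in fl EAE. Altogether 8 members had an unadjusted p under 0.05, all of them lower in fl EAE, against 11.3% of all genes in either direction. The fitted difference was below 0 for 32 of 44 members, with a median of -0.27 against -0.02 over all genes tested in mature oligodendrocytes. The run 2 fl EAE library, on which this fit leans, had the lowest summed neuron markers in mature oligodendrocytes of all 11 libraries, at 479 CPM, where the fl naive libraries had 572 (run 2) and 778 CPM. It was also the lowest library for Epha6 (7.04 CPM), Robo2 (10.4 CPM), Slit2 (2.53 CPM) and Efna5 (3.38 CPM), all of which are higher in neurons, and the part of this library in the median was not tested.

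In the neuronal classes immunization moved 0 members past the threshold by edgeR, and 0 by DESeq2. The share of all genes passing was 0% over all neurons, 0% in granule cells, 0.0198% in molecular layer interneurons, 0.0175% in excitatory neurons and 0% in inhibitory neurons, with 1880, 1873, 967, 1433 and 1660 genes at an unadjusted p under 0.05 and 65, 49, 6, 4 and 1 genes called by DESeq2 in that order. Members at an unadjusted p under 0.05 numbered 3, 6, 10 and 4 of 44, with 7 in inhibitory neurons. The shares of all genes at that p were 9.42%, 10.0%, 6.38%, 8.36% and 9.42% in the same order. The 10 in molecular layer interneurons were 4 higher and 6 lower in fl EAE, and the 7 in inhibitory neurons 4 higher and 3 lower. Sema5a in granule cells (log2 difference 0.48, SE 0.14, adjusted p = 0.359) and Ntn1 over all neurons (-0.65, SE 0.20, adjusted p = 0.441) had the smallest p in their classes.

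Between the naive genotypes, with run in the model, the comparison rests on 1 library against 1 within run 3, both assumed to vary like the others. In it 0 members and 0% of genes passed by edgeR in mature oligodendrocytes and likewise 0 members and 0% of genes in neurons (DESeq2 was not run), with 2 and 1 members and 440 and 687 genes at an unadjusted p under 0.05. The difference of the genotype effect between EAE and naive was tested as an interaction, whose naive side is the same pair of libraries. In mature oligodendrocytes 0.0125% of genes and 0 members passed by edgeR, with 3 members and 790 genes at an unadjusted p under 0.05, and in neurons 0% of genes and 0 members passed, with 0 members and 773 genes at an unadjusted p under 0.05. The smallest interaction p among members was that of Pak5 in mature oligodendrocytes, at -0.96 log2 units (SE 0.25, adjusted p = 0.809), where the genotype difference was 0.55 without immunization and -0.41 in EAE. Dcc was next at -0.82 (SE 0.28, adjusted p = 0.951). For Sema5a the interaction was -0.40 (SE 0.23, adjusted p = 1.00), so that its genotype effect in EAE was not shown to differ from that in naive mice.

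Sema3c, a secreted class 3 semaphorin, stood apart by sequencing run. In neurons the 2 run 3 libraries had 144 (fl naive) and 183 CPM (NestinCre naive), and the other 9 libraries had 11.5 to 26.3 CPM, the run 2 fl naive library among them at 14.0 CPM. In mature oligodendrocytes the run 3 libraries had 173 and 182 CPM and the others 8.75 to 30.2 CPM. In each of the 13 classes with at least 10 nuclei in every library, both run 3 libraries lay above all 9 others. No other member was more than 2 times higher in run 3 than in the highest other library in a class tested. Both run 3 libraries were from naive mice, and run and state cannot be told apart in them, but the fl naive library of run 2 did not share the level.

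**Figure D5:**
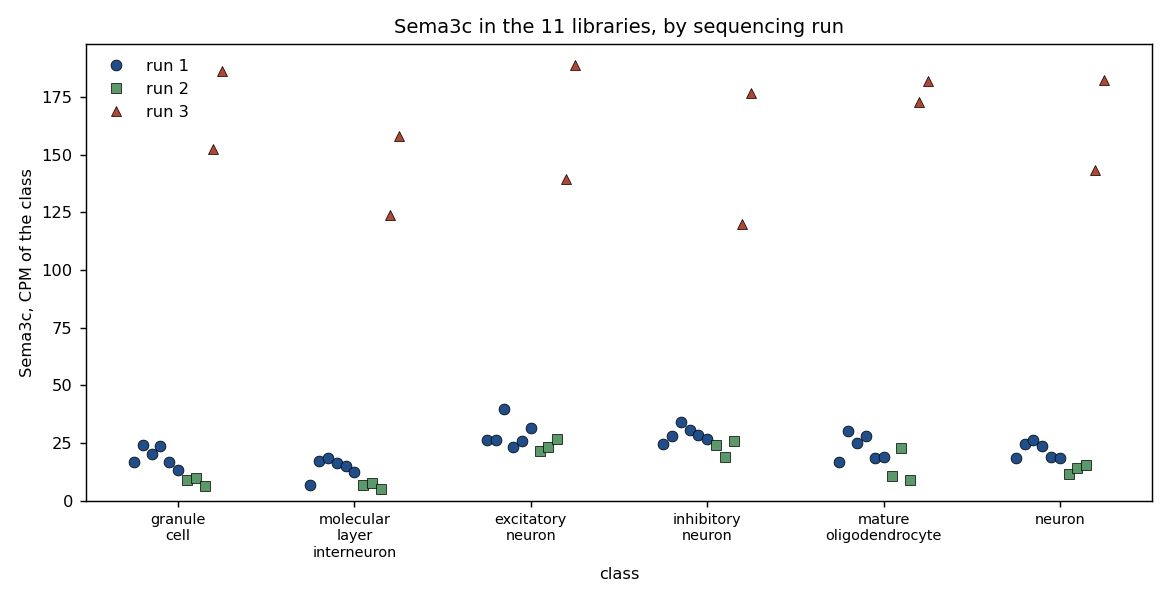
Level of Sema3c (CPM, linear axis from 0) in the 11 libraries (points, in the same order within each class) in 5 classes and over all neurons, coloured and shaped by sequencing run. The 2 run 3 libraries lie at 120.1 to 189 CPM in every class shown and the other 9 libraries at 5.17 to 39.6 CPM.

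Other genes of the guidance pathway were taken from a list of 75, mainly further ligands, receptors and intracellular effectors. In mature oligodendrocytes 68 of them were tested. Between the genotypes in EAE 2 were lower, among them Dscam, a netrin co-receptor and adhesion molecule (-0.67, SE 0.14, adjusted p = 0.0166), and 0 were higher, where 1.97% of all genes passed. The median of the list was -0.01, next to 0.003 over all genes. Between fl EAE and fl naive 4 were lower, among them Chn1 (-1.23), Srgap2 (-0.83) and Pak3 (-0.81), these 3 with adjusted p from 0.0276 to 0.0435, and 0 were higher, where 0.695% of all genes passed. The median there was -0.17, next to -0.02 over all genes. Chn1 and Srgap2 act downstream of Eph receptors and Robos, and Pak3 is a kinase related to Pak5. In the neuronal classes the only call was Epha10, higher in molecular layer interneurons of NestinCre EAE (0.73, SE 0.16, adjusted p = 0.0486, 65 genes of the list tested, where 0.502% of all genes passed).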

How the data were processed

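Single-nucleus libraries of 11 samples were analysed from the filtered matrices of UMI counts that the authors deposited, made with Cell Ranger (6.0.2 per the labels; run 1 file headers name 7.0.0) on GRCm39 with introns counted. Nuclei with at least 200 genes (run 1) or 500 genes (runs 2 and 3) and at most 5% mitochondrial UMIs were kept, and Scrublet doublets, 28580 of 188089 barcodes, were left out. Clusters (scanpy 1.11.5, Leiden) were named from fixed markers, and 5.85% of kept nuclei stayed unnamed. UMIs were summed per library and class. Genes with 20 or more UMIs in a class were tested with edgeR 4.0.16 (quasi-likelihood, TMM, run as covariate, 8 EAE samples for the genotype comparison, all 11 otherwise), with DESeq2 1.42.0 as an alternative. The study used DESeq2 on such sums after its test over single nuclei. Depth was 40761007 to 86063464 UMIs per library, and counting error is only part of the spread. Members and lists were chosen with earlier results of these data known. Values per sample are given for members past a threshold, the 5 smallest p in mature oligodendrocytes and neurons, and those the study names. Some genes that passed are not reported here. The test was checked on simulated counts. Alternatives covered normalization, filters, doublets, depth, run, replicates, clusters and, chosen after seeing the data, another clustering seed.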

Additional observations from a re-analysis of the deposited data

Results flagged for a closer look

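Members listed for values by library gave 36 groups of 4 libraries. The list follows a rule that used these same results (past a threshold or among the smallest p) and the names given by the study. Sema4a in granule cells and Dcc in molecular layer interneurons were not on that list. In these groups, 3 held a library far from the other 3 by Dixon's criterion (the gap to the nearest other library over the range of the group). Chance flags about 1 group in 20 (5%), a rate for groups not picked by their values, whereas some of the members here were. Lrig2 in mature oligodendrocytes of fl EAE had its highest library at 188.602 CPM, with the other 3 between 167 and 169 CPM. In excitatory neurons of NestinCre EAE, Efnb3 had its highest library at 15.542 CPM, with the other 3 between 11.1 and 11.5 CPM, and Efnb2 at 23.781 CPM, with the other 3 between 17.2 and 18.3 CPM.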

How the results depend on the processing

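Of 583 alternative values for 36 results, 520 kept direction and side of the threshold. For the genotype in EAE, mature oligodendrocytes, the count of members past the threshold was 1. It became 3 with DESeq2 (318 of 15982 genes) and 3 without the UMI filter (438 of 20393 genes), with Pak5 and Epha3 added. It was 2 with RLE size factors (325 genes, Epha3 added). It was 0 with doublets kept (317 genes), under 6000 UMIs (314), within run 1 alone (295) and without neuron marker UMIs (129). Leaving out 1 library gave 0 to 4, with 4 without NestinCre EAE replicate 3 (383 genes, Epha4 at -0.64, adjusted p = 0.0202). After immunization there (1), it was 2 with DESeq2 (231 of 15982 genes) and 3 without the filter (295 of 20915 genes). It was 0 without the run term (0 genes) and 2 without the interferon-led cluster (179 of 15787 genes). In granule cells (0) it was 1 with DESeq2 (460 of 18648 genes) and 1 under 6000 UMIs (362 of 18520 genes), both times Sema4a. In molecular layer interneurons (0) it was 1 without the filter (239 of 19848 genes) and 1 in run 1 alone (101 of 15151 genes). Leaving out 1 library there gave 0 to 1 (29 to 100 genes), and the member was Dcc each time. Il12rb2 turned to 0.136 in run 1 alone and ranged from -0.2 to 0.136 leaving out 1 library. Epha3 turned to -0.415 without neuron marker UMIs, and Ephb2 to 0.066 in the Anln-led cluster. In excitatory neurons Efnb2 was 0.028 under 6000 UMIs, 0.035 in run 1 alone and -0.297 to 0.035 leaving out 1 library, Epha4 -0.029 in run 1 alone and -0.029 to 0.231, and Efnb3 -0.208 to 0.015. In granule cells Efna5 ranged from -0.043 to 0.267 and Epha7 from -0.092 to 0.163, with -0.001 without the run term and -0.001 with doublets kept. The causes were not tested. Clustering with another seed, chosen after seeing the data, changed no count of members past the threshold (Sema5a -0.48, adjusted p = 0.0304). Over all genes, the genotype counts in EAE ranged over the alternatives from 129 (without neuron marker UMIs) to 438 (no filter) in mature oligodendrocytes (315 as reported), from 21 (without fl EAE replicate 1) to 402 (DESeq2) in neurons (247), from 101 (without fl EAE replicate 1) to 460 (DESeq2) in granule cells (378), from 22 to 239 in molecular layer interneurons (76), from 9 to 100 in excitatory neurons (28, and 51 with another seed) and from 4 to 77 in inhibitory neurons (19). After immunization they ranged from 0 (no run term) to 295 (no filter) in mature oligodendrocytes (111), with 17 without fl EAE replicate 1 and 16 without fl EAE replicate 2, and up to 65, 49, 84, 48 and 76 in neurons, granule cells, molecular layer interneurons, excitatory and inhibitory neurons. After the mean of its group was subtracted from each run 1 library, same-numbered libraries correlated at -0.13 to 0.147. With 3 libraries a group, this gave no sign that the numbers pair them. In no class did all 6 of these libraries correlate best with their own number (0 to 4 did). The replicate block left 1 member, Sema5a, past the threshold in mature oligodendrocytes (adjusted p = 0.0353), changed no other count of members and left 98 genes in neurons and 212 in granule cells. Leaving out the run 2 fl naive library could not be fitted for immunization, and leaving out the other dropped the NestinCre naive library too. With 1 or 2 naive libraries a group, small differences between states were not detectable.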

Other observations

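Newly formed oligodendrocytes reached 10 nuclei in 6 libraries and entered no comparison. Beside Sema5a, their medians were 561 CPM of Sema4d, 411 CPM of Sema3d, 310.4 CPM of Sema5b and 139 CPM of Sema4a, against 159, 20.4, 1.75 and 4.17 CPM in mature oligodendrocytes. Pak5 stood the other way round, at 119 CPM against 1462 CPM. Plxnb3, at 205 and 196 CPM, was alike in both. Infiltrating phagocytes, with 10 nuclei in 7 libraries, had medians of 294 CPM of Nrp1, 149 CPM of Sema4a and 138 CPM of Sema4d, and the 11 libraries of microglia 454, 12.7 and 219 CPM. These classes were named from clusters made with the same genes, and the values carry no test.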
